A study of Mus musculus with 8 samples.

Results

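The enzymes that write, copy, oxidise and excise methylated cytosine were followed in mouse embryonic stem cells on 8 microarrays, each hybridised with 1 sample. The members are 10 genes: the de novo methyltransferases Dnmt3a and Dnmt3b with their cofactor Dnmt3l, the maintenance methyltransferase Dnmt1 with Uhrf1 and Uhrf2, the oxidases Tet1, Tet2 and Tet3, and the glycosylase gene Tdg. Every probe whose RefSeq accession belongs to one of these genes was taken, whatever its signal, which gave 20 of the 55681 probes on the array and 10 of the 21154 genes that its accessions name. All 20 probes passed the filter on dim probes, which asks that at least 1 group has both of its arrays well above background, and all 10 genes are among the 15180 genes tested.

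Methylation of cytosine at CpG is copied to the new strand by Dnmt1 after Uhrf1 has bound the half-methylated site. Dnmt3a and Dnmt3b place it on unmethylated sites, and Dnmt3l, which has no catalytic activity of its own, binds and stimulates them. The TET enzymes oxidise methylcytosine, and the product of Tdg removes the most oxidised forms so that repair can restore cytosine. In mouse embryonic stem cells Dnmt3b is known for being lower in the naive state than in cells that move towards the primed epiblast, and Tet1 and Tet2 are the TET genes these cells mainly use.

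The cells carry H-Ras-/-, N-Ras-/- and RERTert/ert and are built so that 4-hydroxytamoxifen (OHT) activates Cre and leaves them without RAS. They form 4 groups of 2 arrays: ERF-KO given OHT, ERF-KO untreated, ERF-WT given OHT and ERF-WT untreated. Erf encodes a repressor of the ETS family that ERK signalling holds outside the nucleus, and the design asks what changes when RAS is lost with and without it. OHT was given for at least 2 days, the cells grew on gelatin in serum and LIF, and each sample was a mix of 2 clones, called a pool here. Pools A2 and B2 are labelled ERF-KO and pools A1 and B1 ERF-WT, and each was sampled with OHT and untreated. The groups share every RAS and Cre allele, and no group kept its RAS under OHT, so the drug and the loss of RAS cannot be told apart.

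A level is given below as log2 of the processed signal relative to the 75th percentile of its array, and a change as the difference of such levels. Levels of different probes are not comparable, and where a gene has several probes, that of the highest mean level stands for it and is called its gene probe. Dnmt3b, Tdg and Tet3 have 3 probes each, Uhrf1, Uhrf2, Tet1 and Tet2 have 2, and Dnmt1, Dnmt3a and Dnmt3l have 1. Of the spots on each array 54.0 to 63.6% were well above background and none were saturated. Small dark areas of the chip covered 0 to 4.14% of the spots, most on the array of pool A2 given OHT, and touched 3 of the 160 member values. All 10 embryonic stem cell markers were well above background on 8 arrays. So were all 9 measured trophoblast markers, 8 of 9 measured fibroblast markers and 8 of 10 primitive endoderm markers. This flag alone thus does not tell cell types apart. Erf itself read 3.92 and 5.31 in OHT-treated pools A2 and B2 and 3.45 and 5.65 in the same pools untreated, against 4.98 and 4.93 in OHT-treated A1 and B1 and 5.12 and 5.43 in these untreated. Pool B2 is thus at the level of the wild type pools, so "labelled knockout" is used for A2 and B2 together. The bright probes of Hras and Nras read well above background on all 8 arrays. No source used here places the probes of these 3 genes relative to the deleted parts, so their signal does not check the deletions.

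The promoter windows of the genes that fell with OHT are printed because ERF binds the letters GGAA through its ETS domain. Each window is 300 bases, 250 before to 50 after a RefSeq start (GRCm38.p6), read 5′ to 3′ on the gene's strand, with GGAA on either strand in capitals (TTCC is the same motif on the other strand). All 10 members had at least 1 window, 17 in all, and of the 3 windows of Dnmt3a the first is printed.
Dnmt3b, chr2:153649199-153649498, plus strand: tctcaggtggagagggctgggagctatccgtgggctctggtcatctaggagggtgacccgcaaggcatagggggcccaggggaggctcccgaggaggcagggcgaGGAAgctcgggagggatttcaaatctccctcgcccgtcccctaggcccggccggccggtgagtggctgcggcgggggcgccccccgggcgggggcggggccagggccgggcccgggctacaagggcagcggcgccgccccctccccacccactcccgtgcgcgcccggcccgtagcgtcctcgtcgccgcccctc
Dnmt3l, chr10:78042037-78042336, plus strand: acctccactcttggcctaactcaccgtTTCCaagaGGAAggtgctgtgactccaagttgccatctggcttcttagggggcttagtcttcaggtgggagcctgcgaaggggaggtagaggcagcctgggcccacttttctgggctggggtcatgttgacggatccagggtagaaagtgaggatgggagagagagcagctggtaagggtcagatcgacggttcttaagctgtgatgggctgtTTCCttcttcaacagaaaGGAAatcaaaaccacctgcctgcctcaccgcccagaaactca
Dnmt3l, chr10:78049592-78049891, plus strand: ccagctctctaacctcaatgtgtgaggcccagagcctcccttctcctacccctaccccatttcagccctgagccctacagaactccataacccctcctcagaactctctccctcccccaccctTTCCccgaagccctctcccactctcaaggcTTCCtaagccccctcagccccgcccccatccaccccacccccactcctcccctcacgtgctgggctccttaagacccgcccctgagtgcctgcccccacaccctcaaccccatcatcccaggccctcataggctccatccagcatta
Dnmt3l, chr10:78055085-78055384, plus strand: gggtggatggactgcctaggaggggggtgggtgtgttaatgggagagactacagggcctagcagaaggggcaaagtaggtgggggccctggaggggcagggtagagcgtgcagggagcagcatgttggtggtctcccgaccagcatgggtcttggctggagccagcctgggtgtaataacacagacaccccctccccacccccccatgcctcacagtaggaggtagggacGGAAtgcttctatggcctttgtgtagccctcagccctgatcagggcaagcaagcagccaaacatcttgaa
Dnmt3a, chr12:3806730-3807029, plus strand: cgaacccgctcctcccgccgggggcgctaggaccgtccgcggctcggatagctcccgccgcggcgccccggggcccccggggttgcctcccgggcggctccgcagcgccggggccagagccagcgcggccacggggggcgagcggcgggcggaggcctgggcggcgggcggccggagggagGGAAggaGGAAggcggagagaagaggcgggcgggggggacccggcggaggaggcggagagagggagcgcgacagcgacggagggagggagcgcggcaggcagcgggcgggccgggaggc

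Dnmt3b has 1 RefSeq start, and its window holds 30 CpG, more than 88.3% of the 32851 windows of all genes. The 3 Dnmt3l windows hold 6, 4 and 3 CpG, below the median of 7, and the Dnmt3a window shown holds 46, more than 98.4% of windows. The Dnmt3a windows not shown hold 47 CpG, more than 98.6% of windows, and 18 CpG, more than 70.3%. GGAA occurs once in the Dnmt3b window, 4, 2 and 1 times in the Dnmt3l windows and 2 times in the Dnmt3a window shown, with 2 and 3 in the windows not shown. It occurs in 96.0% of all windows, with a median of 3, so the letters do not set these promoters apart. The longer ETS match CCGGAAG, searched on both strands, is in none of the 17 windows of the members and in 8.86% of all windows. A match is a run of letters and not a site, and its absence concerns these windows alone.

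With OHT the genes of de novo methylation fell in both genotypes. Dnmt3b came to 54.7% of untreated in the labelled knockout and 42.0% in the wild type, Dnmt3l to 79.8 and 62.7%, and Dnmt3a to 65.7 and 70.6%. The maintenance genes Dnmt1, Uhrf1 and Uhrf2, the TET genes and Tdg did not pass the test in either genotype. The test behind "fell" is the paired fit, which compares each pool with itself, leaves out spots in dark patches, uses limma with a trended and robust variance, and was chosen after seeing the data. It differs from the fit on group means in all of these choices at once. On group means no gene passed in any of the 5 comparisons, and with the pool as a block but none of the other changes no gene passed either.

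Dnmt3b, the main de novo enzyme of the early epiblast, read 6.51 and 6.06 in OHT-treated pools A2 and B2, against 7.27 and 7.04 in these pools untreated. Its wild type levels were 5.95 and 5.84 in OHT-treated pools A1 and B1, against 7.15 and 7.14 untreated. Every OHT-treated array lay below every untreated one, and the 2 wild type arrays given OHT were the lowest of the 8. The fitted change was -0.87 ± 0.07 (SE, n = 2 pools) in the labelled knockout and -1.25 ± 0.07 in the wild type, with adjusted p of 0.00208 and 1.69e-04 in limma's paired fit. Group means gave the same changes with an SE of 0.21 and adjusted p of 1 and 0.346. A second probe of Dnmt3b changed by -1.13 in both A2 and B2, and by -1.45 in A1 and -1.43 in B1. The remaining probe changed by -1.06 in A2, -1.41 in A1 and -1.48 in B1, with its OHT spot of pool B2 in a dark patch. All 11 readable comparisons of a Dnmt3b probe within a pool were lower after OHT, from -1.48 to -0.76, though the probes share the same arrays.

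Dnmt3l, the cofactor without catalytic activity, read 7.42 and 7.20 in OHT-treated pools A2 and B2, against 7.67 and 7.60 untreated. Wild type pools had 6.72 and 6.70 in OHT-treated A1 and B1, against 7.36 and 7.41 untreated. The groups did not overlap in either genotype, and the 2 wild type arrays given OHT again stood lowest. Its change was -0.33 ± 0.06 (SE, n = 2 pools) in the labelled knockout and -0.67 ± 0.06 in the wild type, with adjusted p of 0.0244 and 9.30e-04 in limma's paired fit. With the block and this variance but dark patches left in, the adjusted p was 0.0600 and 0.00693. Dnmt3l has a single probe, so no second one checks it.

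Dnmt3a, the second de novo enzyme, read -0.15 and -0.41 in OHT-treated pools A2 and B2, against 0.28 and 0.37 untreated. Among wild type arrays it read -0.26 and 0.14 in OHT-treated A1 and B1, against 0.22 and 0.68 untreated. Within each genotype OHT arrays lay below untreated ones, with little room in the wild type between B1 given OHT and A1 untreated. The change was -0.61 ± 0.13 (SE, n = 2 pools) in the labelled knockout and -0.50 ± 0.13 in the wild type, with adjusted p of 0.0312 and 0.0349 in limma's paired fit. Neither call holds in the 5 other paired fits of all 4 pools. With the block alone the adjusted p was 0.188 in the labelled knockout and 0.146 in the wild type, and with trended and robust variance added it was 0.0707 and 0.0668. With patches found by a window of 21 spots left out too, it was 0.0589 and 0.0575, and with the window of 5 spots and the plain variance 0.130 and 0.107. The call of Dnmt3a thus rests on the window of 5 spots together with that variance. It also rests on a single probe.

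**Figure D1:**
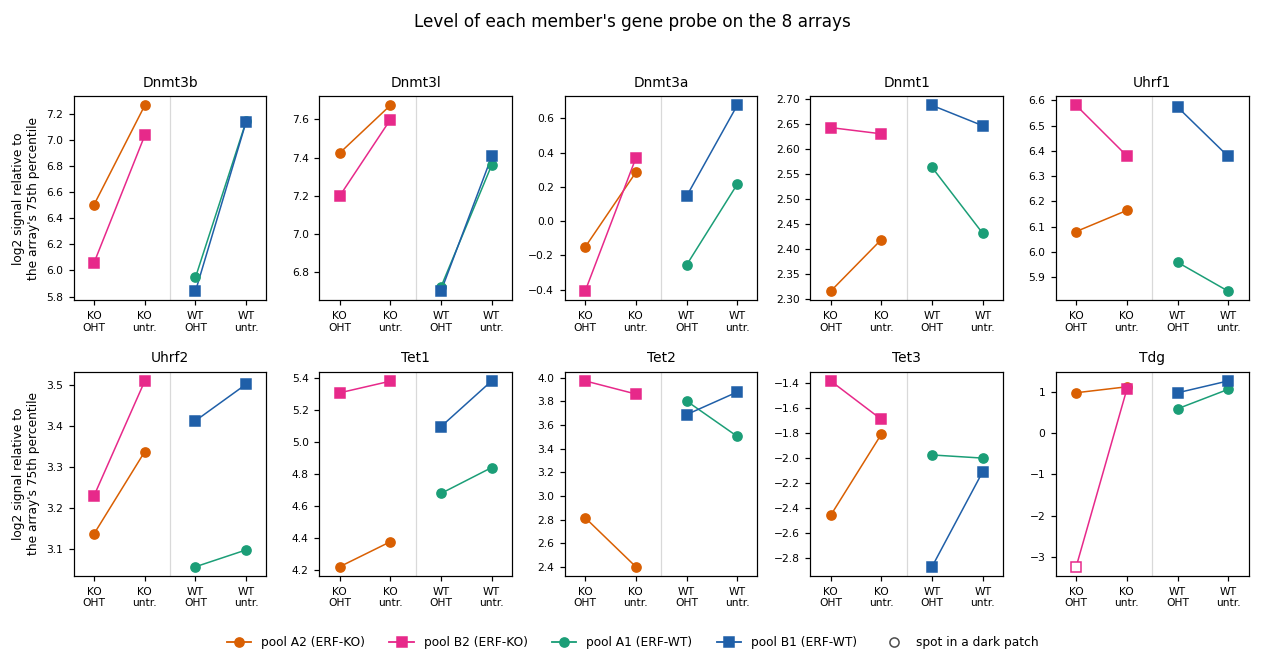
Log2 level of each member's gene probe relative to the 75th percentile of the array (y axis, a separate scale for each gene) on the 8 arrays, grouped as ERF-KO OHT, ERF-KO untreated, ERF-WT OHT and ERF-WT untreated (x axis), with a line joining the OHT and untreated arrays of a pool. Dnmt3b, Dnmt3l and Dnmt3a slope the same way in all 4 pools, Tet1 and Tet2 are lowest in pool A2, and the open Tdg symbol at -3.24 is a spot in a dark patch.

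Set against all genes, 3 of 10 members fell in each genotype in the paired fit, where 9.43% of all tested genes passed in the labelled knockout and 17.0% in the wild type, with 4.56 and 9.89% falling. None of the members rose, against 4.88 and 7.11% of all genes. With every probe tested by itself, 5 of the 20 member probes fell in each genotype, against 2.3% of all probes in the labelled knockout and 6.59% in the wild type. None rose, against 3.02 and 3.96% of probes, and 5.32 and 10.6% passed in either direction. These 5 are the 3 probes of Dnmt3b and those of Dnmt3l and Dnmt3a. On group means 0 of 10 members were called in each of the 5 comparisons, against 0.0% of all genes. Of the 15180 genes, 585 in the labelled knockout and 905 in the wild type had an unadjusted p under 0.05. A share of about 0.05 reaches this where no gene changes, so such counts alone show no change. The median change of the 10 members on group means was -0.21 in the labelled knockout and -0.30 in the wild type, beside 0.02 and -0.05 for all genes. The labelled knockout value keeps a Tdg spot in a dark patch. In the paired fit, which leaves it out, the medians were -0.16 and -0.30, beside 0.03 and -0.05 for all genes. OHT arrays lay wholly below untreated ones for 5 members in the labelled knockout (Dnmt3a, Dnmt3b, Dnmt3l, Uhrf2 and Tdg) and for 4 in the wild type (Dnmt3a, Dnmt3b, Dnmt3l and Tdg), beside 11.4 and 23.1% of all genes. Dnmt3a, Dnmt3b, Dnmt3l and Tdg lay wholly below in both genotypes, as did 6.58% of all genes. No member lay wholly above, beside 14.9% of all genes in the labelled knockout and 16.0% in the wild type. These counts keep spots in dark patches, and the Tdg spot of OHT-treated pool B2 is such a spot. The readable OHT value of Tdg in the labelled knockout, 0.98 in A2, lay below 1.13 and 1.07 in untreated A2 and B2.

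Pools matter for how many members pass. With 1 pool of a genotype left out, the remaining pool of that genotype is assumed to vary like the others, since the 1 residual degree of freedom comes from the other genotype. Without pool B2, whose Erf level is that of the wild type, Dnmt3b alone passed in the labelled knockout, at -0.76 in pool A2 with an adjusted p of 0.00747 in limma's paired fit, where the spread is that of the wild type pools. Without pool A2 Dnmt3a, Dnmt3b and Dnmt3l all passed there on the same footing, and Dnmt3b was at -0.98 in pool B2. With each of the 4 pools left out in turn, Dnmt3b passed in both genotypes every time and Dnmt3l every time except in the labelled knockout without B2. Dnmt3a passed without A2 in both genotypes and without B2 in the wild type, and in no other of these fits.

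**Figure D2:**
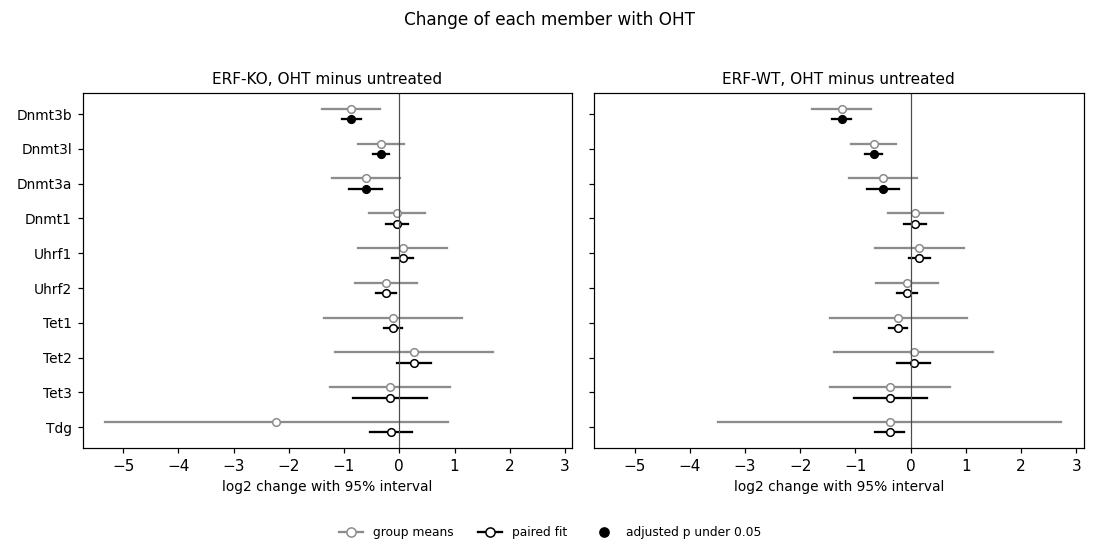
Log2 change of the 10 members with OHT (x axis) in the labelled knockout (left) and the wild type (right), with 95% intervals, from group means (grey) and from the paired fit (black); filled points have an adjusted p under 0.05. Filled points stand at Dnmt3b, Dnmt3l and Dnmt3a in the paired fit of both genotypes, and the wide grey interval of Tdg in the labelled knockout includes its dark spot.

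The fall of Dnmt3b and Dnmt3l was smaller in both pools labelled knockout than in both wild type pools, on each readable probe. The difference of the OHT effects, labelled knockout minus wild type, was 0.38 for Dnmt3b with a 95% interval of 0.14 to 0.62 and 0.35 for Dnmt3l with one of 0.14 to 0.55 in the paired fit. Neither passed over all genes, with adjusted p of 0.402 and 0.385 in limma, and no gene did, against 196 genes with an unadjusted p under 0.05 on group means. On group means the intervals were -0.37 to 1.13 for Dnmt3b and -0.24 to 0.93 for Dnmt3l. Dnmt3a differed by -0.11, with an interval of -0.52 to 0.31 in the paired fit. For the labelled knockout against the wild type after OHT, Dnmt3l stood 0.60 ± 0.17 higher (SE) with an adjusted p of 0.999 in limma on group means, and untreated it stood 0.25 ± 0.17 higher with one of 1. For Dnmt3b these differences were 0.39 after OHT and 0.01 untreated. Primitive endoderm markers moved with the genotype: 9 of 10 were lower in the labelled knockout after OHT, with a median of -0.81 on group means, and 10 of 10 were lower untreated, with a median of -0.87, though none passed the test. Their mean level was -2.66 and -2.18 in OHT-treated A2 and B2, against -1.79 and -1.15 in OHT-treated A1 and B1. Untreated it was -2.23 and -2.02 in A2 and B2, against -1.75 and -0.88 in A1 and B1, and 8 of the 10 markers were well above background on every array. The mean of OHT-treated A2 includes Dab2 at -6.96, a spot in a dark patch, against -1.21 in untreated A2. With dark patches left out, the median difference after OHT was -0.73 in the paired fit. The part of these markers in the level of Dnmt3l was not tested. No member passed in either comparison of genotypes, whether on group means or in the paired fit, which there blocks on the replicate number shared by A pools and by B pools, nor did any of the 15180 genes, of which 334 after OHT and 206 untreated had an unadjusted p under 0.05 on group means.

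Dnmt1, which copies methylation at replication, read 2.32 and 2.64 in OHT-treated pools A2 and B2, against 2.42 and 2.63 untreated. Wild type levels were 2.56 and 2.69 in OHT-treated A1 and B1, against 2.43 and 2.65 untreated. The changes within pools, from -0.10 to 0.13, had no common sign. The paired interval was -0.24 to 0.15 in the labelled knockout and -0.11 to 0.29 in the wild type, so a change of the size of Dnmt3b lies outside both.

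Uhrf1, which leads Dnmt1 to half-methylated sites, read 6.08 and 6.58 in OHT-treated A2 and B2, against 6.16 and 6.38 untreated. Wild type arrays gave 5.96 and 6.57 in OHT-treated A1 and B1, against 5.84 and 6.38 untreated. It was higher after OHT in 3 pools and lower in A2, and its paired intervals were -0.13 to 0.24 in the labelled knockout and -0.03 to 0.34 in the wild type. A second Uhrf1 probe shared the sign of the first in the 3 pools where it could be read. Uhrf2, its close relative, changed by -0.24 ± 0.08 (SE, n = 2 pools) in the labelled knockout and -0.07 ± 0.08 in the wild type, with adjusted p of 0.0910 and 0.607 in limma's paired fit. Its second probe had the opposite sign in 3 of the pools, so the direction of Uhrf2 is not settled by these probes.

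**Figure D3:**
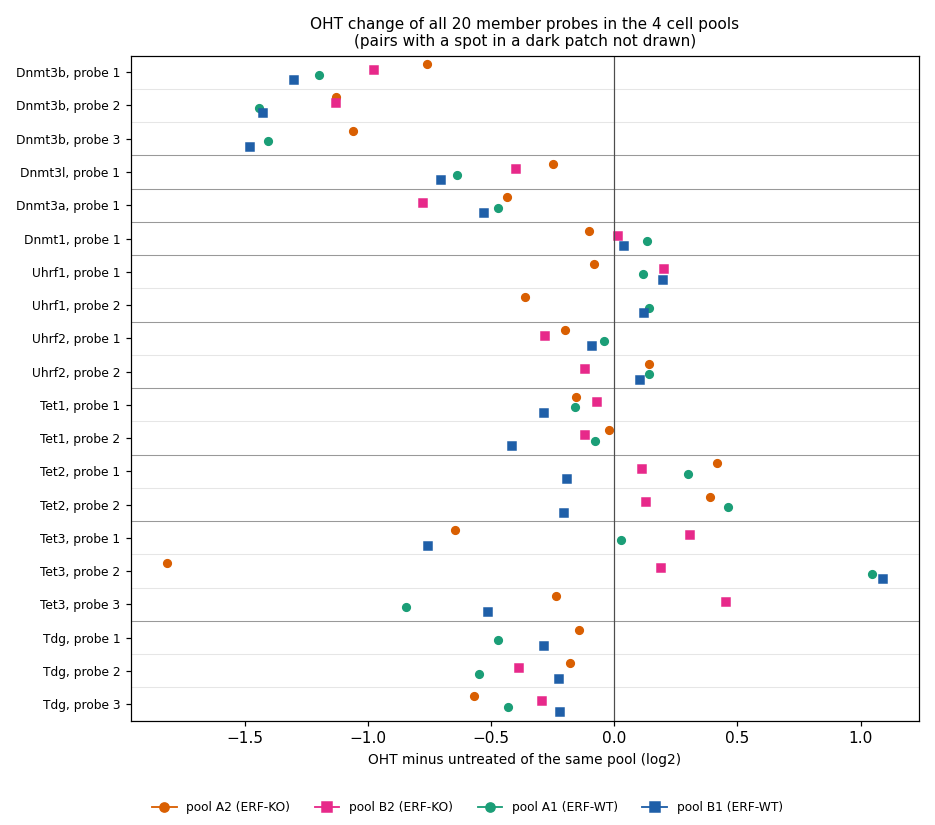
OHT minus untreated of the same pool (x axis, log2) for each of the 20 member probes (rows, grouped by gene), with a symbol for each of the 4 pools; pairs with a spot in a dark patch are not drawn. The 11 points of Dnmt3b lie between -1.48 and -0.76, the 11 of Tdg between -0.57 and -0.14, and those of Tet3 fall on both sides of zero.

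Among the demethylation genes, Tdg and Tet1 read slightly lower after OHT and did not pass the test. Tdg, whose product excises oxidised methylcytosine, was lower after OHT in 11 of 11 readable comparisons of a probe within a pool, from -0.57 to -0.14. The 3 probes of Tdg were read on the same arrays, so these comparisons are not independent of each other. Its gene probe read 0.98 in OHT-treated A2 against 1.13 untreated, 0.59 in A1 against 1.07 and 0.98 in B1 against 1.27. In OHT-treated B2 that spot lay in a dark patch and read -3.24 against 1.07 untreated, while the other Tdg probes changed there by -0.39 and -0.29. The change was -0.14 ± 0.16 (SE, 1 pool) in the labelled knockout and -0.38 ± 0.11 (SE, n = 2 pools) in the wild type, with adjusted p of 0.596 and 0.0636 in limma's paired fit. The SE in the labelled knockout comes from the other pools, as 1 pool has no spread of its own. On the other Tdg probes, readable in both pools, the labelled knockout changed by -0.28 and -0.43, with adjusted p of 0.223 and 0.181 over every probe in limma's paired fit. With the dark spot left in, the labelled knockout came to -2.23 on group means, a value that this 1 spot sets.

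Tet1, a TET enzyme abundant in these cells, read 4.22 and 5.31 in OHT-treated A2 and B2, against 4.38 and 5.38 untreated. In wild type cells it read 4.68 and 5.10 in OHT-treated A1 and B1, against 4.84 and 5.38 untreated. Both of its probes were lower after OHT in all 4 pools, by 0.02 to 0.42, and the change was -0.11 ± 0.07 in the labelled knockout and -0.22 ± 0.07 in the wild type, with adjusted p of 0.334 and 0.0716 in limma's paired fit. The gap between pools was wider than the gap between treatments.

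Tet2, which oxidises methylcytosine like Tet1 but lacks its DNA-binding domain, read 2.82 and 3.97 in OHT-treated A2 and B2, against 2.40 and 3.86 untreated. The wild type had 3.80 and 3.69 in OHT-treated A1 and B1, against 3.50 and 3.88 untreated. It was higher after OHT in 3 pools and lower in B1 on both of its probes, and the adjusted p was 0.232 in the labelled knockout and 0.814 in the wild type in limma's paired fit. Tet3, the TET gene of the oocyte and zygote, ran from -2.87 to -1.38 on its gene probe, and its 12 comparisons within pools were lower in 6 and higher in 6. One of its other probes was well above background on neither untreated wild type array and on both OHT-treated ones. Its order depends on the background correction. With the normexp correction it read -2.65 and -2.06 in OHT-treated A1 and B1, below -2.54 and -1.80 untreated, so no bound is drawn from it. The probes of Tet3 differ in sign, so no direction is given for it.

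Tet2 and Tet1 differed most by pool. Averaged over its OHT and untreated arrays, Tet2 was at 2.61 in pool A2 and 3.92 in B2, against 3.65 in A1 and 3.78 in B1. Pool A2 lay below B2 by 1.31 on the gene probe of Tet2 and below it by 1.34 on the second. For Tet1 the means were 4.30 in A2 and 5.34 in B2, against 4.76 in A1 and 5.24 in B1. Each of these pools is 1 mix of clones, so the differences are descriptions with no test. Among 14246 genes, 3.52% were as far or farther below zero than Tet2 in A2 minus B2 and 6.11% than Tet1. In that difference 14.5% of the genes lay past 1 either way, against 6.57% of 15017 genes in A1 minus B1. Pools A2, B2 and A1 shared a slide and B1 was on another, so A1 minus B1 also crosses slides. The other readable members differed between A2 and B2 by -0.60 (Tet3) to 0.34 (Dnmt3b).

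Other measures stood apart in the same pool. Erf was lowest in A2, with a difference of A2 minus B2 of -1.79. The mean level of the 10 embryonic stem cell markers was 4.44 with OHT and 4.30 untreated in A2, against 4.96 to 5.42 on the other arrays. The mean of the 9 trophoblast markers measured of 10 was 1.69 and 1.54 in A2, against -0.02 to 0.72 elsewhere. The part of these in the level of Tet2 and Tet1 was not tested. For the labelled knockout against the wild type untreated, Tet2 came to -0.56 ± 0.58 (SE) and Tet1 to -0.23 ± 0.50 on group means, each with an adjusted p of 1 in limma, and the SE carries the gap between A2 and B2. In bulk RNA, fewer cells that express a gene and less RNA per cell cannot be told apart.

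**Figure D4:**
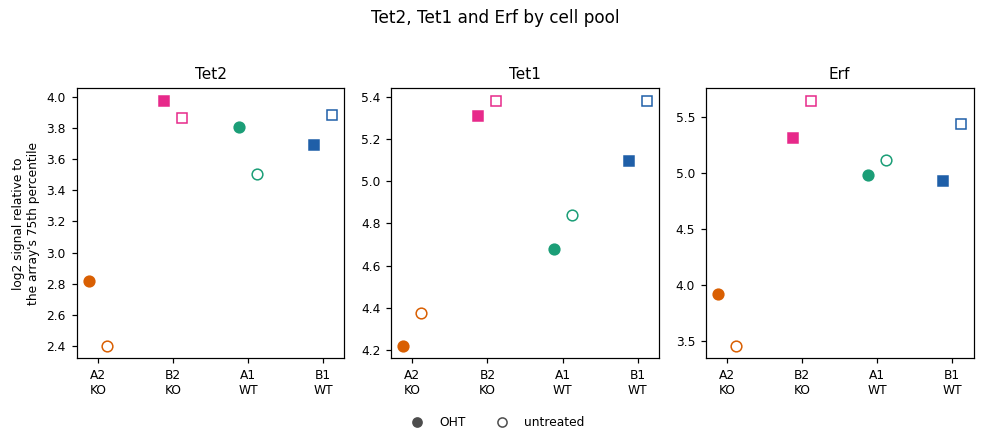
Log2 level of Tet2, Tet1 and Erf (y axes, a separate scale for each gene) in pools A2 and B2 (ERF-KO) and A1 and B1 (ERF-WT), with OHT (filled) and untreated (open). Pool A2 is the lowest for all 3 genes with and without OHT, and pool B2, also labelled ERF-KO, lies with the wild type pools.

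Of 17 tested of 18 genes for targeting and control of methylation, 2 rose (Prdm14 and Dppa3) and 2 fell (Ehmt2 and Cdca7) in each genotype in the paired fit, beside 9.43% of all genes passing in the labelled knockout and 17.0% in the wild type. Prdm14, known in mouse to repress Dnmt3b and Dnmt3l in naive cells, read -0.07 and 1.89 in OHT-treated A2 and B2, against -1.97 and 0.32 untreated. Wild type levels stood at 2.60 and 2.56 in OHT-treated A1 and B1, against 0.26 and 0.68 untreated. It was higher after OHT in every pool, by 1.58 to 2.34, and lowest in A2. Its change was 1.74 ± 0.14 (SE, n = 2 pools) in the labelled knockout and 2.11 ± 0.14 in the wild type, with adjusted p of 0.00208 and 2.96e-04 in limma's paired fit.

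Dppa3, also known as Stella, which keeps Uhrf1 from chromatin, rose by 0.69 ± 0.11 in the labelled knockout and by 0.96 ± 0.11 in the wild type, with adjusted p of 0.0133 and 0.00170 in limma's paired fit. Ehmt2, the histone methyltransferase G9a, fell by 0.69 ± 0.06 in the labelled knockout and by 0.54 ± 0.06 in the wild type. Cdca7, the activator of the remodeller Hells, changed by -0.36 ± 0.07 in the labelled knockout and -0.29 ± 0.07 in the wild type. The rest of this list did not pass, and its median was -0.12 in the labelled knockout and -0.07 in the wild type, beside 0.03 and -0.05 for all genes.

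Of 8 tested readers of methylated CpG, 1 fell in the labelled knockout, and 1 rose and 2 fell in the wild type, beside 9.43 and 17.0% of all genes passing. The median of the readers was 0.16 in the labelled knockout and -0.14 in the wild type, against 0.03 and -0.05 for all genes. Mbd3 fell in both genotypes, by 0.33 ± 0.07 in the labelled knockout and by 0.25 ± 0.07 in the wild type. Its product sits in the NuRD complex. In wild type pools Mbd1 fell by 0.37 ± 0.09, with an adjusted p of 0.0319 in limma's paired fit.

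Of 15 base excision and demethylation genes, 1 rose and 1 fell in the labelled knockout and 2 rose and 2 fell in the wild type, where 9.43 and 17.0% of all genes passed. The list's median was 0.01 in the labelled knockout and -0.09 in the wild type, beside 0.03 and -0.05 for all genes. Gadd45b, a stress gene proposed as a cofactor of demethylation, rose in both, by 0.86 ± 0.09 in the labelled knockout and by 1.16 ± 0.09 in the wild type. Ung, the uracil glycosylase, fell by 0.27 ± 0.06 in the labelled knockout. In the wild type Gadd45g rose by 0.59 ± 0.12, and the deaminase gene Apobec1 fell by 0.65 ± 0.12.

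Of 15 tested of 16 genes for methyl donor and cofactor supply, 1 rose and 2 fell in the labelled knockout and 2 rose and 3 fell in the wild type, again beside 9.43 and 17.0% of all genes. Idh1, which makes the 2-oxoglutarate that TET enzymes consume, rose by 0.82 ± 0.12 in the labelled knockout and by 0.68 ± 0.12 in the wild type, with adjusted p of 0.0116 and 0.0102 in limma's paired fit. Ahcy, which clears the product that inhibits methyltransferases, fell by 0.53 ± 0.12 in the labelled knockout, and Idh3a by 0.40 ± 0.07. In the wild type Idh2 rose by 0.57 ± 0.08, while Gnmt, which spends the methyl donor, fell by 0.95 ± 0.17 and Shmt2 by 0.37 ± 0.08. The median of this list was -0.18 in the labelled knockout and -0.20 in the wild type, against 0.03 and -0.05 for all genes.

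**Figure D5:**
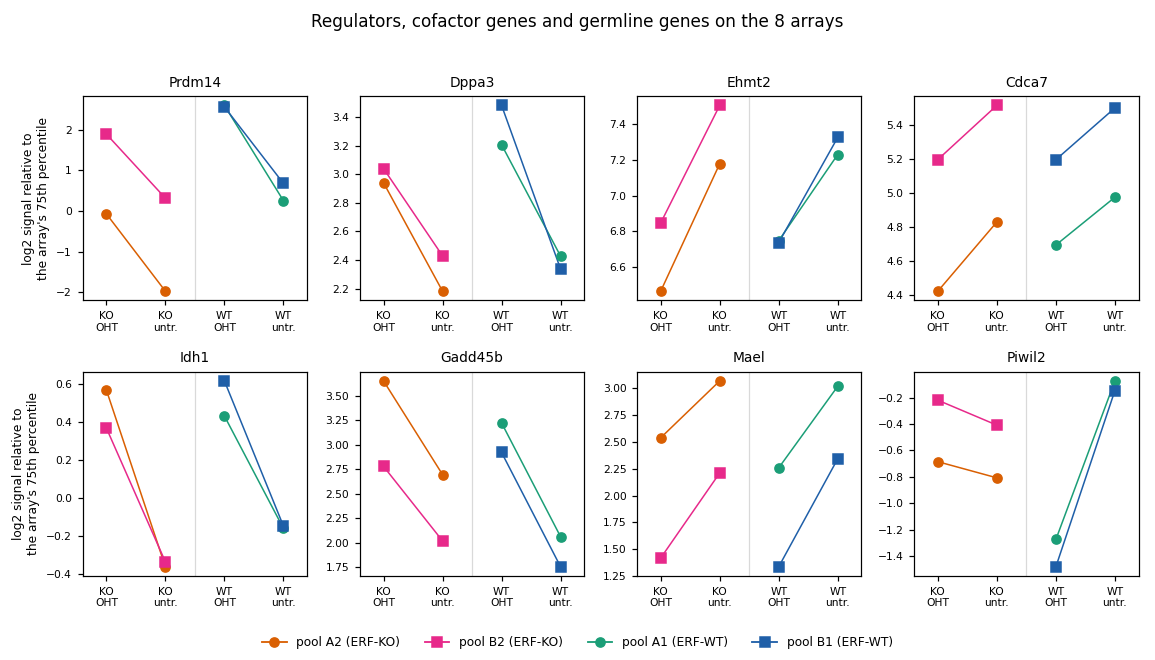
Log2 level of 8 genes of the lists (y axes, a separate scale for each gene) on the 8 arrays, grouped as ERF-KO OHT, ERF-KO untreated, ERF-WT OHT and ERF-WT untreated (x axis), with a line joining the arrays of a pool. Prdm14, Dppa3, Idh1 and Gadd45b are higher after OHT in all 4 pools, Ehmt2, Cdca7 and Mael are lower in all 4, and Piwil2 is lower in the wild type pools and slightly higher in those labelled knockout.

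Germline genes listed as silenced by DNA methylation fell with OHT or did not pass the test. Whether the list name describes these cells was not tested. Of the 15 genes measured, 14 were well above background on all 8 arrays, a flag that dim spots also meet. The rest of the 18 had no probe that entered the tests. Mael read from 1.33 in OHT-treated B1 to 3.07 in untreated A2. The promoters of this list were not examined. Of 15 tested of 18, 2 fell in the labelled knockout and 8 in the wild type in the paired fit, and none rose, while 4.56 and 9.89% of all genes fell. The median of the list was -0.16 in the labelled knockout and -0.57 in the wild type, beside 0.03 and -0.05 for all genes. Mael, a gene of the piRNA pathway, changed by -0.66 ± 0.11 in the labelled knockout and -0.89 ± 0.11 in the wild type, and the meiosis gene Tex11 by -0.78 ± 0.12 and -0.87 ± 0.12. Piwil2, a PIWI protein of the male germline, read -0.69 and -0.22 in OHT-treated A2 and B2, against -0.81 and -0.41 untreated. In the wild type it read -1.28 and -1.48 in OHT-treated A1 and B1, against -0.07 and -0.15 untreated, and fell by 1.27 ± 0.13 with an adjusted p of 0.00116 in limma's paired fit. Slc25a31, a carrier gene of the male germline, fell by 1.17 ± 0.28 in the wild type, at dim levels. It read -3.27 and -4.37 in OHT-treated A1 and B1, against -2.11 and -3.20 untreated. Methylation itself was not measured on these arrays.

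Markers of the primed epiblast moved with Dnmt3b, which is one of the 10. In the paired fit 7 of them fell in the labelled knockout and 8 in the wild type, Dnmt3b included. Of all genes 4.56 and 9.89% fell. None of the markers rose, against 4.88 and 7.11% of all genes. Without members of the set, their mean was 0.93 and 0.29 in OHT-treated pools A2 and B2, against 2.23 and 1.29 in these untreated, and 0.68 and 0.26 in OHT-treated A1 and B1, against 2.46 and 1.67 untreated. All 10 were well above background on every array, a flag that dim spots also meet. Fgf5 read -3.73 and -3.62 in OHT-treated B1 and B2. Lef1 (-2.40 in the labelled knockout and -2.85 in the wild type), Otx2 (-1.76 and -2.15) and Pou3f1 (-1.74 and -2.15) had larger changes than Dnmt3b on this scale, where different probes need not respond alike. The part of a shift in cell state in the change of Dnmt3b was not tested. Of 10 embryonic stem cell markers, 1 rose and 2 fell in the labelled knockout and 2 rose and 4 fell in the wild type. Of 9 trophoblast markers tested, 1 rose and 1 fell in the labelled knockout and 2 rose and 2 fell in the wild type. Of 9 fibroblast markers tested, 1 rose in each genotype, and of 10 primitive endoderm markers, none passed in the labelled knockout and 2 fell in the wild type. Beside these counts, 9.43% of all genes passed in the labelled knockout and 17.0% in the wild type.

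Among 13030 genes well above background on all 8 arrays, those whose level followed Dnmt3b most closely were Wdr46, Enc1, Vegfc, Esrp1 and 1700037C18Rik, with Pearson's r of 0.988 to 0.980. For Dnmt3l they were Api5, Noct, Ttc21b, Bcar1 and Mterf3, with r of 0.984 to 0.970. The 8 points share pools and treatments, so these values describe likeness over these arrays. Enc1 changed by -0.73 in the labelled knockout and -1.08 in the wild type on group means, and Noct by -0.62 and -1.66.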

How the data were processed

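Per the labels, 8 samples of total RNA carrying Cy3 went on 1 array each. Per the file headers, the deposited intensity values come from Agilent Feature Extraction 11.5.1.1, which subtracted the background and did no scaling between arrays. The flags of spots above background, saturated or non-uniform, coded 0 or 1, are likewise deposited columns of the scanner files. Upstream choices of the authors beyond that are not given in the sources used here, and a deposited value table was not used because its probe names do not match the scanner values.

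Control spots and outlier spots were left out, and log2 of the processed signal minus the 75th percentile of the array was taken. Accessions were named through RefSeq genes of GRCm38.p6, which matched 28026 of 55681 probes to 21154 genes and left 27655 unnamed. A probe entered the tests if some group had it well above background on both arrays (32420 probes), and the probe with the highest mean stood for its gene (15180 genes).

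Tests used limma 3.58.1 (R 4.3.3) on 4 group means, two-sided, with Benjamini-Hochberg adjustment over all genes and a threshold of 0.05. The paired fit adds a block, which is the pool for the OHT changes and their difference and the replicate number (A or B pools) for the comparisons of genotype. It also leaves out spots in any window of 5 by 5 spots whose median deviation is below -1, and uses a trended and robust variance. Pairing comes from the source names: with each group mean taken off, same-numbered replicates correlated at 0.722 between the labelled knockout groups and 0.746 between the wild type groups with dark patches left out. Between genotypes they correlated at 0.411 to 0.557, though they are different clones. The labels call the pools biological replicates. With 2 arrays a group, their number limits the precision. Slide 1 held 6 arrays and slide 2 both arrays of pool B1, so no OHT change crosses slides. The comparisons of genotype do cross them. With slide as a block, the median genotype difference of the 10 members was 0.13 after OHT, against -0.09 on group means. Untreated it was 0.07 with the block, against -0.003 on group means. The scripts were tested on simulated data. Alternatives covered background correction, scaling, filters, probe choice, variance, slide, pairing, pools and single arrays.

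The members and lists were chosen with earlier results of these data known. All members and their probes are named. Of every other list up to 4 genes with the largest change among those that passed are named for each OHT comparison, or else the one with the smallest p, and 5 genes each for likeness to Dnmt3b and Dnmt3l; some genes this rule names are not reported. The lists were methyl-CpG readers, targeting and control of methylation, base excision and demethylation, methyl donor and cofactor supply, germline genes, and markers of embryonic stem cells, fibroblasts, primitive endoderm, trophoblast and primed epiblast. Figures used Python 3.11.15, numpy 2.4.6, pandas 2.3.3 and matplotlib 3.10.9.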

Additional observations from a re-analysis of the deposited data

Results flagged for a closer look

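Among the genes named here, 3 moved one way with OHT in both pools labelled knockout and the other way in both wild type pools, although no difference of the OHT effects passed over all genes. Piwil2 changed by 0.12 and 0.19 in A2 and B2, against -1.20 and -1.34 in A1 and B1, and the difference was 1.43 ± 0.18 (SE) with an adjusted p of 0.129 in limma's paired fit and 1 on group means. Zbtb38, a reader of methylated CpG, changed by 0.68 and 0.38 in A2 and B2, against -0.51 and -0.39 in A1 and B1, a difference of 0.98 with an adjusted p of 0.495 in the paired fit. Gcm1, a trophoblast marker, changed by 0.37 and 0.08 in A2 and B2, against -0.59 and -0.23 in A1 and B1, a difference of 0.63 with an adjusted p of 0.363 in the paired fit.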

How the results depend on the processing

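Labelled knockout values come before wild type values here. Group means called 0 genes in the 5 comparisons, and so did most other settings; in the wild type 4 genes passed when all 8 arrays had to be well above background, 3 with trended and robust variance and 22 with array weights. With the replicate block alone no gene passed. With the block and trended and robust variance 383 and 1458 genes passed (1 and 2 members), with dark patches of the window of 21 spots left out as well 622 and 1747 (2 and 2 members), with the window of 5 spots but the plain variance 0 and 250 (0 and 1 member), and in the paired fit, added after seeing the data, 1432 and 2580 (3 and 3 members). On every probe the paired fit called 1725 and 3422 probes, 5 and 5 of them of members. The paired fit without pool A1 called 820 and 679 genes (2 and 2 members), without A2 586 and 3379 (3 and 4), without B1 871 and 535 (2 and 2) and without B2 1034 and 3335 (1 and 4). Tdg is the fourth member, at -0.38 with adjusted p of 0.0345 without A2 and 0.0351 without B2. For the difference of the OHT effects these omissions called 5, 2, 8 and 58 genes, none a member. On group means without pool B2, 354 genes passed in the labelled knockout, 300 for the difference of the effects and 461 for the genotypes after OHT. Leaving out each array in turn called 0 to 384 genes in the labelled knockout, 0 to 29 in the wild type, 0 to 325 for the difference of the effects, and for the genotypes 0 to 386 after OHT and 0 to 21 untreated. Members called ran from 0 to 1 in the labelled knockout, for the difference and for the genotypes after OHT; that 1 is Tdg without replicate 1 of ERF-KO OHT, at -4.34 in the labelled knockout with adjusted p of 0.00233, where only its dark spot is left.

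Apart from settings that leave out an array, the change of Dnmt3b ranged from -2.03 to -0.77 in the labelled knockout and from -1.38 to -1.12 in the wild type, Dnmt3l from -0.33 to -0.24 and -0.67 to -0.58, and Dnmt3a from -0.61 to -0.49 and -0.50 to -0.37. With single arrays left out Dnmt3a in the wild type ran from -0.73 to -0.27, at -0.27 without replicate 2 of ERF-WT untreated and -0.30 without replicate 1 of ERF-WT OHT, and Dnmt3l in the labelled knockout from -0.44 to -0.21, at -0.21 without replicate 2 of ERF-KO OHT. The -2.03 is the mean of the Dnmt3b probes with the dark spot of B2 included. Of 1468 values of single members under 32 settings, 1405 kept their side of the threshold and their direction or a change of sign within the SE, 37 passed where the main value did not, and 26 changed sign by more than the SE without being called in either. Among these the difference of the OHT effects for Dnmt3b was -0.66 with its probes averaged, dark spot included, and that for Tdg was 0.24 in the paired fit against -1.85 on group means. With 2 pools a genotype, 1 of them at wild type Erf level, differences between genotypes the size of those in Dnmt3l could not be called over all genes.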
